A study of Mus musculus with 4 samples.

Results

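The replication-dependent histone genes were taken as the genes with older symbols of the Hist1 to Hist4 series, or their present symbols of the H1f, H2ac, H2bc, H3c and H4c series, that had at least 1 transcript cluster (the probe set of an annotated transcript) carrying their symbol alone. This gave 25 genes of 22180 named genes on the array, read by 26 clusters. They were 4 linker histone H1 genes, 6 H2A, 8 H2B and 7 H4 genes, of which 20 lie in the Hist1 gene cluster and 5 in Hist2 by their older symbols. No H3 gene had a cluster of its own. The series holds 4 arrays (Affymetrix Mouse Gene 2.0 ST), with 1 array for each of 4 groups. Heads were taken at embryonic day (E) 12.5 from a wild-type and from a Tbx1 knockout, and palatal shelves at E13.5 from the same 2 genotypes, all on a mixed C57BL/6J and FVB/N background. The knockout allele is not described in the sources used here, nor is it said whether an array holds 1 embryo or a pool. The comparisons ask how these genes differ without Tbx1, a T-box transcription factor of the pharyngeal apparatus, in each tissue, and between the tissues.

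Core histones H2A, H2B, H3 and H4 form the nucleosome, and H1 binds the DNA between nucleosomes. The replication-dependent genes lie in clusters, are transcribed mainly in S phase and give mRNAs that end in a conserved stem-loop in place of a poly(A) tail, so their level in a tissue is known to follow the share of cells that replicate DNA. Some members also give polyadenylated transcripts in cells that have left the cycle. Because many copies encode near-identical proteins, probes can read several genes, and a value for a named copy may hold signal of its relatives.

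Promoters of H2B genes are shown first, because the H2B genes had the largest differences in the results below. RefSeq promoters (GRCm38.p6) were matched for 23 of the 25 genes, and those of H2bc21 and H4c14 were not. The 250 bases before each annotated start were searched on both strands for CCAAT, the letters TATAAA and the octamer ATTTGCAT, which is known from H2B promoters as a site of the POU factor Oct-1, and no motif is contained in another. CCAAT was found in 18 of the 23 promoters (78.3%), against 33.8% of all 32851 promoters. TATAAA was found in 13 (56.5%, against 12.4%) and ATTTGCAT in 8 (34.8%, against 1.6%). The octamer was in 5 of 7 H2B and 3 of 6 H2A promoters and in none of 4 H1 and 6 H4 promoters, whereas CCAAT was in all H1, H2A and H2B promoters with a match and in 1 of 6 H4 promoters. The divergent pairs H2ac12 and H2bc12 (starts 178 bases apart) and H2ac1 and H2bc1 (281 bases apart) each share the region between them, so their octamer is counted for both genes of a pair. The sequences below are the 140 bases before the start of 4 H2B genes, read along the gene, with the searched motifs (either strand) in capitals. H2bc9 lies at chr13:23543445-23543584 on the minus strand and holds CCAAT alone. H2bc3 (chr13:23746594-23746733, plus strand) holds all 3 motifs. H2bc12 (chr13:22035681-22035820, plus strand) holds CCAAT and the octamer in the bases shown and TATAAA upstream of them, and H2bc18 (chr3:96269560-96269699, plus strand) holds CCAAT and the octamer. A match describes the letters and is not a measured binding site.
H2bc9: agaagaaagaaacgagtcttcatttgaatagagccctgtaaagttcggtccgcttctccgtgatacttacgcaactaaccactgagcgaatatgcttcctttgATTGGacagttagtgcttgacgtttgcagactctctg
H2bc3: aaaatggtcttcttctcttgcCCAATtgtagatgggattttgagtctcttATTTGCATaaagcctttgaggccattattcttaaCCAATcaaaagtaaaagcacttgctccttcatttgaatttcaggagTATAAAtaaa
H2bc12: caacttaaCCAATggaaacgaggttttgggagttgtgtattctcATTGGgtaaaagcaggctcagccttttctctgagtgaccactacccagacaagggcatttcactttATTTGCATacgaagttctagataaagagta
H2bc18: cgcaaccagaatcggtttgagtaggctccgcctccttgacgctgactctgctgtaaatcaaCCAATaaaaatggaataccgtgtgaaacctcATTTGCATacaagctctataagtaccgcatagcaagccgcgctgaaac

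Levels are given as RMA values on the log2 scale. A comparison took in the genes whose highest array in it reached 6.16, which is the median of all named genes on all arrays. Of the 25 genes, 11 entered in the head and 10 in the shelves. The 11 were H1f2 and H1f5, H2ac10, H2ac20 and H2ac21, H2bc3, H2bc9, H2bc12, H2bc18 and H2bc21, and H4c12. H2bc9 was the 1 that entered in the head alone, through the wild-type array (6.34), so its lower levels on the other arrays follow in part from how it entered, and H4c9 lay just outside at 6.12. The other 14 genes (H1f1, H1f3, H2ac1, H2ac12, H2ac15, H2bc1, H2bc14, H2bc22, H4c1, H4c2, H4c8, H4c9, H4c14 and H4c17) lay between 2.23 and 6.12 on every array. H2ac1 and H2bc1, which encode the testis histones TH2A and TH2B, were at most at 5.45 and 2.50. Levels of different genes are not compared, because each has its own probes.

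**Figure D1:**
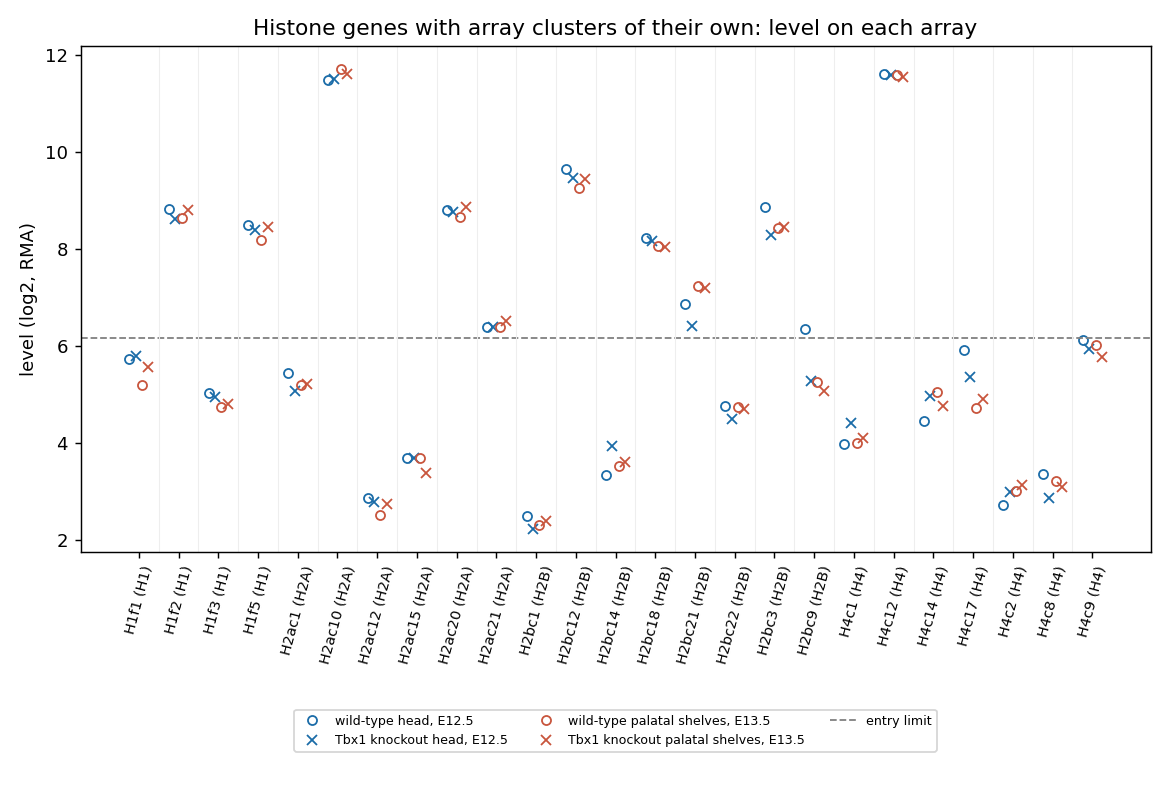
Level (log2, RMA) of each of the 25 histone genes on the 4 arrays, grouped by family. Circles are wild type and crosses knockout, blue is head and red palatal shelves, and the dashed line is the entry limit of 6.16, which 11 genes reach on at least 1 array.

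Among the 11 genes that entered in the E12.5 heads, 3 of 5 H2B genes had the largest differences, and the 3 H2A genes and the 1 H4 gene were nearly level. H2bc9 was at 6.34 in wild-type head, 5.27 in knockout head, 5.26 in wild-type shelves and 5.06 in knockout shelves. The wild-type head array alone was high, and the log2 difference in the head was -1.07, which is set in part by its entry through that array. H2bc3 was at 8.86 in wild-type head, 8.30 in knockout head, 8.44 in wild-type shelves and 8.45 in knockout shelves. Again the wild-type head array lay above the other 3, and the log2 difference in the head was -0.56. H2bc21, the gene of the H2B variant H2BE known from olfactory neurons, was at 6.86 in wild-type head and 6.40 in knockout head (log2 difference -0.46), and at 7.24 and 7.20 in wild-type and knockout shelves. These 3 were lower by at least 0.32 on the log2 scale, as 2.41% of the 11364 genes in the comparison were. H2bc9 is counted among them although its difference follows in part from how it entered.

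The other H2B genes differed less in the head. H2bc12 was at 9.65 in the wild-type and 9.47 in the knockout head, and H2bc18 at 8.22 and 8.16. The linker histones H1f2 (8.83 and 8.63) and H1f5 (8.50 and 8.38) had log2 differences of -0.20 and -0.11. The H2A genes H2ac10 (11.49 and 11.50), H2ac20 (8.80 and 8.76) and H2ac21 (6.40 on both arrays) and the H4 gene H4c12 (11.62 and 11.59) differed by at most 0.048 on the log2 scale in either direction. For scale, genes with 2 clusters gave an SD per cluster of 0.177 for the difference in the head (286 genes). The disagreement between 2 clusters of 1 gene is larger than this per-cluster value.

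Of the 11 genes, 9 lay below 0 in the head, against 55.5% of all genes that entered. At least 1.5-fold lower was H2bc9 alone, and without it none of 10 was, beside 0.352% of all genes. None was 1.5-fold higher, beside 0.106% of all genes. Because of how H2bc9 entered, nothing is read from its count. The median log2 difference was -0.11, beside -0.017 over all genes, and -0.085 without H2bc9. With 1 array per group these differences have no replicate check. The median of the 14 dim genes was -0.076, and they ranged from -0.55 for H4c17 to 0.61 for H2bc14, with H4c14 at 0.52, H4c8 at -0.50, H4c1 at 0.43 and H2ac1 at -0.39.

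Knockout and wild-type palatal shelves at E13.5 were close for every gene that entered. The log2 differences ran from -0.11 for H2ac10 to 0.25 for H1f5, with a median of 0.069 beside 0.021 over all genes, and 4 of 10 genes lay below 0, against 44.8% of all genes. None was 1.5-fold higher or lower, as 1.91% and 1.34% of the 11449 genes that entered were. H1f5 was at 8.19 in the wild-type and 8.45 in the knockout shelves, and H2ac20 at 8.66 and 8.87. Next came H2bc12 (9.25 and 9.44) and H1f2 (8.63 and 8.81). In these 4 genes the wild-type shelf array was the lower of its pair, while in the head the wild-type array was the higher of its pair. That the pairs differ was not tested. The SD per cluster from genes with 2 clusters was 0.241 (286 genes), about as large as the difference of H1f5. The disagreement between 2 clusters of 1 gene is larger than that. The dim genes ranged from -0.31 to 0.38.

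**Figure D2:**
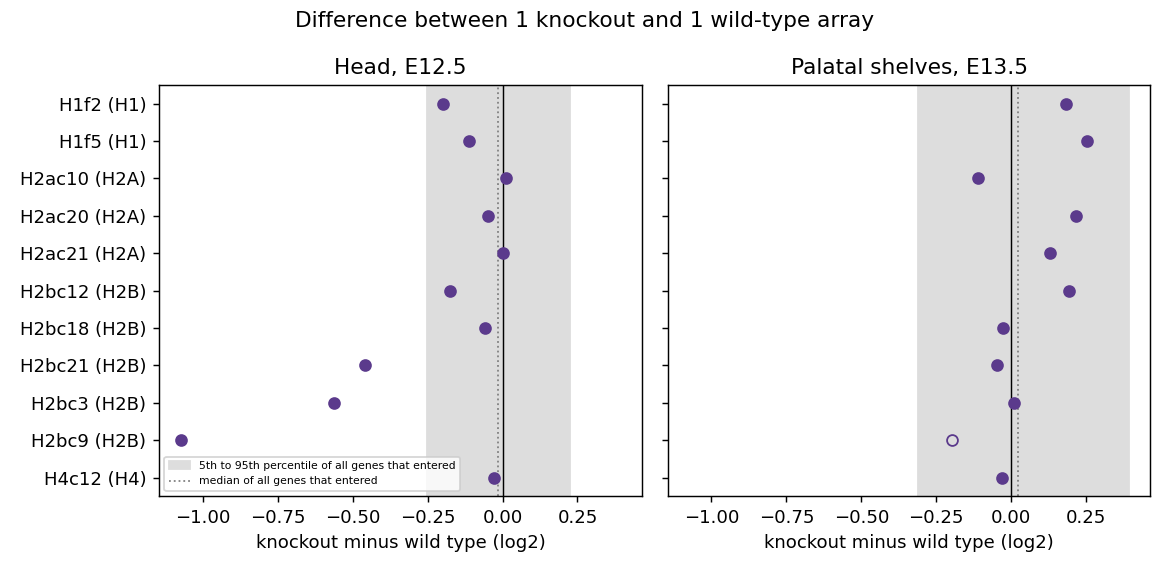
Knockout minus wild-type log2 difference of the 11 genes in the head (left) and palatal shelves (right), 1 array per group. Points are genes, the grey band spans the 5th to 95th percentile of all genes that entered, and the open point is H2bc9, which did not enter in the shelves; in the head H2bc9, H2bc3 and H2bc21 lie below the band.

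Over both pairs, no histone gene passed the test for genotype. The additive limma fit of genotype and tissue (1 residual degree of freedom, 11999 genes) gave H2bc9 a log2 difference of -0.63 (SE 0.20, limma adjusted p = 0.919). H2bc3 followed with -0.28 (SE 0.15) and H2bc21 with -0.25 (SE 0.13), with limma adjusted p of 0.935 and 0.927. The highest was H2ac20 at 0.085 (SE 0.11). By limma, 0 of 11999 genes (0%) had an adjusted p under 0.05, and 628 (5.23%) had an unadjusted p under 0.05. H2bc9 was the 1 histone gene of 11 among those. It entered through the wild-type head array alone, so its p-values follow in part from how it entered and nothing is read from them. With 1 variance common to all genes and a normal test in place of the limma test, H2bc9 passed (normal test, adjusted p = 0.00343). Over 8 alternatives its adjusted p ran from that value to 0.997 (limma). The 1 residual degree of freedom holds how the head pair differs from the shelf pair, and no spread among replicates. The prior had 5.49 degrees of freedom, so the p-values rest mostly on the variance of other genes.

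Probe sets shared between copies gave a further reading of each family. Another 37 clusters carried several symbols with at least 1 histone gene among them, 3 of them identical copies of another on all 4 arrays. Among the 34 distinct ones, 15 reached the entry limit on some array and no gene is named from them. The 6 bright H2B clusters had head differences from -0.27 to 0.44, with 4 below 0 and 2 above. The cluster at 0.44 was at 5.66 and 6.10 in wild-type and knockout head, under the limit, and was bright through the shelves alone. The 2 above 0 carry the same 3 symbols and so read 1 set of copies. Among the 4 below 0, 2 clusters shared by 12 and by 4 H2B genes were at 12.31 and 12.43 in wild-type head and at 12.23 and 12.34 in knockout head. The 5 bright H2A clusters ran from -0.13 to 0.40 in the head, and the bright H4 cluster was at -0.045. Knockout minus wild type in the shelves ran from -0.50 to 0.23 for the bright H2B clusters, 2 below 0 and 4 above. It ran from -0.095 to 0.28 for the H2A clusters and was 0.077 for the H4 cluster. For H3, the clusters give the only reading: 2 of 12 were bright, one at 8.13 in wild-type head, 8.03 in knockout head, 8.06 in wild-type shelves and 7.92 in knockout shelves, and the other between 5.90 and 6.22. No member cluster was identical to another. H2ac21, the 1 gene with 2 clusters, had one at 8.90 and one at 3.89 in wild-type head, and their knockout differences were 0.0012 and -0.00078 in the head and 0.12 and 0.14 in the shelves.

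Genes of the cell cycle and of histone metabolism were set beside the histone genes, as counts and medians with no test of a list. Of all genes that entered, 55.5% lay below 0 in the head and 44.8% in the shelves. Of 30 DNA replication genes that entered, 23 lay below 0 in the head (median -0.059), among them Gins2 (-0.24), a subunit of the replicative helicase. In the shelves 20 of 29 did (median -0.059), and cyclin E1 (Ccne1) was at -0.40. Of 21 mitosis genes, 19 lay below 0 in the head (median -0.15), with the spindle motor gene Kif11 at -0.24, and 15 in the shelves (median -0.055). Histone chaperones, which carry new histones to DNA, had medians of -0.048 in the head and -0.056 in the shelves. There Chaf1a, the large subunit of the chromatin assembly factor, was at -0.28 in the head and 0.27 in the shelves. None of these lists held a gene 1.5-fold different in either pair. Of all genes, 0.106% were 1.5-fold higher and 0.352% lower in the head, and 1.91% and 1.34% in the shelves.

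Factors that make histone mRNA had medians of -0.026 in the head and -0.039 in the shelves over 12 genes. Slbp, whose protein binds the stem-loop, was at 8.58 in wild-type head, 8.52 in knockout head, 8.63 in wild-type shelves and 8.69 in knockout shelves. Npat, the coactivator of histone genes, was at 8.94 and 8.92 in wild-type and knockout head and at 9.05 and 9.08 in the shelves. The endonuclease gene of 3' end processing, Cpsf3, was at -0.034 in the head and -0.18 in the shelves. In the shelves the list ran from Cpsf2, its partner in the cleavage complex, at -0.34 to Lsm11 at 0.23. Genes of cell cycle exit had medians of -0.088 and -0.022, and in the shelves 4 of 8 lay below 0, against 44.8% of all genes. They ran there from Cdkn1a, the cyclin-dependent kinase inhibitor p21, at -0.58 to the growth arrest gene Gadd45g at 0.53.

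Variant histone genes, listed apart from the replication-dependent genes, had a median of -0.00097 in the head and -1e-05 in the shelves. H2ax, which is phosphorylated at DNA breaks, was at 0.043 and 0.0069. H2az1, found at promoters, was at 0.29 in the head and at -0.67 in the shelves. It was the 1 variant gene past 1.5-fold, of 7 that entered in the shelves, where 1.34% of all genes were that much lower. The linker histone H1f10 was at -0.014 and 0.50. Other RNAs without a poly(A) tail (mainly small nucleolar RNAs) had a median of -0.037 in the head over 74 genes and 0.073 over 75 in the shelves. These medians have the signs of the replication-dependent genes, as do those of all genes. The array kit primes RNA with and without a tail, and whether priming or RNA quality has a part in the histone values was not tested.

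**Figure D3:**
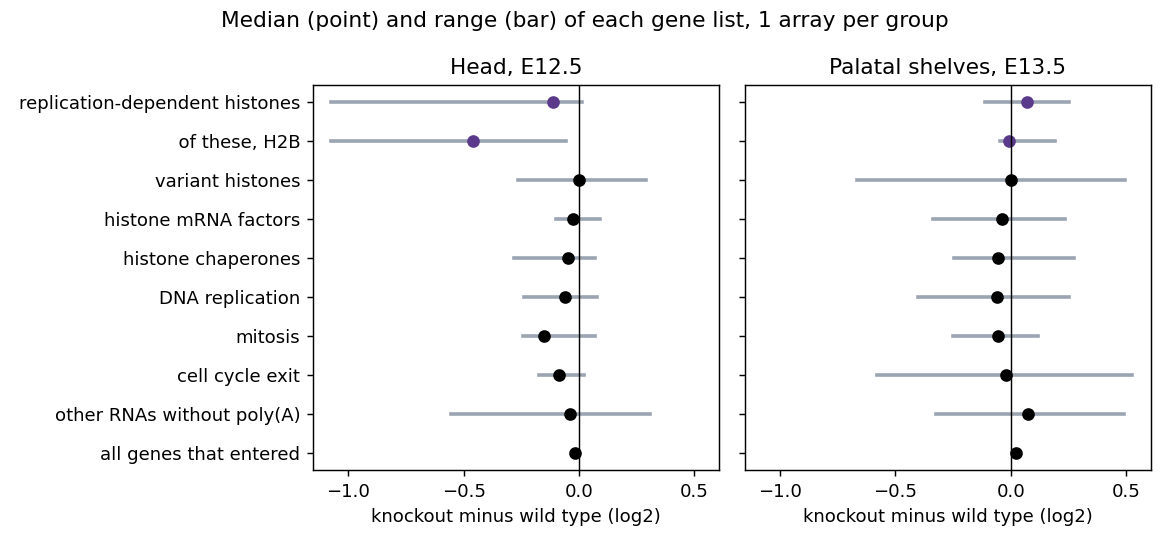
Median (point) and lowest to highest value (grey bar) of the knockout minus wild-type log2 difference for the lists drawn, in the head (left) and palatal shelves (right), with purple points for histone genes. Of the 10 rows plotted, the H2B genes have the lowest median in the head (-0.46), and the plotted medians in the shelves lie between -0.059 and 0.073. The H2B median in the head takes in H2bc9, whose difference follows in part from its entry through the wild-type head array.

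Cell type marker levels differed between knockout and wild-type arrays, though no gene passed the limma test for genotype. The 10 skeletal muscle markers all entered and were all lower in the knockout, with medians of -0.75 in the head and -1.21 in the shelves. Their summed level (log2) was 11.07 and 10.31 in wild-type and knockout head and 10.94 and 9.71 in the shelves. Mylpf in the head, and Mylpf, Myl4, Myog, Neb and Ttn in the shelves, entered through the wild-type array alone. For these genes, entry and difference rest on the same array. In the head, the 5 erythroid markers that entered had a median of -0.45 (summed level of 7 markers 12.84 in wild type and 12.52 in the knockout), while Gata1 and Klf1 stayed below the limit. Of the 5, Kel was lowest at -0.80. It entered through the wild-type head array alone, so its difference follows in part from how it entered. Sex-linked genes differed there as well: Xist was at 11.10 in wild-type and 10.04 in knockout head, and Eif2s3y of the Y chromosome at 7.09 and 8.50. In the shelves, the erythroid markers that entered had a median of 0.022. The 10 neuron markers had a median of 0.52 in the shelves (summed level 11.66 and 12.20) and 0.0079 in the head. Brain markers in the shelves ran from -1.19 for Emx2 to 0.58 for Tubb3, with a median of 0.18. Emx2 entered there through the wild-type array alone, and the neuron marker Nefm through the knockout array alone. The 4 leukocyte markers that entered had medians of -0.058 in the head and -0.48 in the shelves, with summed levels over 8 markers of 9.81 and 9.78 in wild-type and knockout head and 10.11 and 9.73 in the shelves, and Aif1, Laptm5, Ptprc and Tyrobp below the limit. The part of these cells, or of the sex of the embryos, in the histone differences was not tested. In whole tissue, fewer cells of a type and less RNA per cell cannot be told apart. Tbx1 itself was 0.57 lower on the log2 scale in the knockout head (6.83 and 6.25) and 1.21 lower in the knockout shelves (7.39 and 6.18).

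Between tissues, H2bc21 was the histone gene that passed the test, higher in palatal shelves at E13.5 than in the head at E12.5. Its difference was 0.38 between the wild-type arrays and 0.79 between the knockout arrays, and in the additive limma fit 0.59 (SE 0.13, limma adjusted p = 0.0161). The shelf and head arrays did not overlap, the lowest shelf value being 7.20 and the highest head value 6.86. With so few arrays this adds little to the test, and the share of all genes without overlap was not counted. Of all genes, 13% were called higher in the shelves and 14.9% lower, and 1 of 11 histone genes was called, a share no higher than that background. Its limma adjusted p was 0.0521 when dim genes were not filtered, the highest of 8 alternatives. The lowest adjusted p, 0.000562, came from 1 variance common to all genes with a normal test. Tissue and stage change together and cannot be told apart.

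The gene beside it, H2ac20, did not follow. H2ac20 and H2bc21 are neighbours in the Hist2 cluster, and H2ac20 differed by -0.015 (SE 0.11, limma adjusted p = 0.936) between the tissues. H2bc9 did not pass (log2 difference -0.65, SE 0.20, limma adjusted p = 0.0540), and it entered the fit through the wild-type head array alone, with -1.08 between the wild-type and -0.21 between the knockout arrays. The remaining 9 genes lay between -0.21 (H2bc12, SE 0.12) and 0.17 (H2ac10, SE 0.10), and none of them passed. The median of the 11 was -0.032, beside -0.020 over all genes.

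Shared H2B probes also differed between tissues. The 2 clusters that carry the same 3 H2B symbols, whose copies cannot be told apart, were higher in the shelves by 1.13 and 1.11 on the log2 scale. The first was at 5.66 and 6.10 in wild-type and knockout head and at 7.02 in wild-type shelves (knockout minus wild type -0.024). It reached the entry limit on the shelf arrays alone, so its difference follows in part from how it entered. The second was at 6.54 and 6.80 in the head and at 8.02 and 7.53 in the shelves. On both, each shelf array lay above each head array, but the share of all clusters for which this holds was not counted. The other 4 bright H2B clusters lay between -0.082 and 0.19, the H2A clusters between -0.35 and 0.13, and the 2 bright H3 clusters at -0.19 and -0.088. These clusters carry no test.

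**Figure D4:**
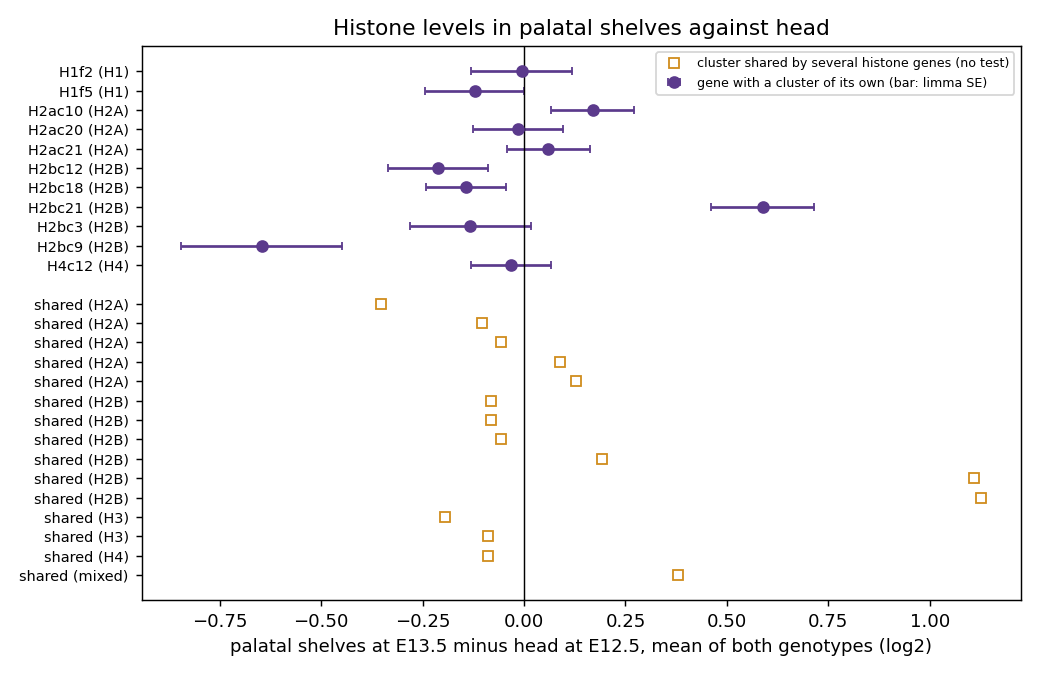
Palatal shelves at E13.5 minus head at E12.5 (log2, mean of both genotypes) for the 11 histone genes (filled points, bars are the SE of the limma fit) and for 15 bright clusters shared by several histone genes (open squares, no test). H2bc21 lies at 0.59, 2 shared H2B clusters lie above 1.1, and H2bc9 lies at -0.65. The higher of the 2 shared clusters reached the entry limit in the shelves alone, and H2bc9 in the wild-type head alone.

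The tissue labels matched their markers. Of 7 palatal shelf markers 6 were higher in the shelves by the limma fit (adjusted p under 0.05, median 1.58), and 5 of 6 brain markers that entered were lower (median -1.87, Neurod1 below the limit on every array). All 10 neuron markers and 5 of 5 erythroid markers were lower in the shelves, with medians of -1.91 and -2.04. The brain marker Pax6 and the erythroid markers Hbb-bh1 and Kel reached the entry limit in the head alone. Their differences follow in part from how they entered. Beside the 13% of all genes called higher and 14.9% called lower, the DNA replication genes had a median of -0.049 with 1 of 30 called (E2f1, log2 difference -0.37, limma adjusted p = 0.0372) and the mitosis genes a median of -0.097 with 0 of 21 called by limma (1 had an unadjusted p under 0.05). Of 12 histone mRNA factors, Lsm11, a subunit of the U7 particle that cuts histone mRNA, was the 1 called (-0.44, limma adjusted p = 0.0216). Of 9 genes of cell cycle exit, 4 were called by limma: Gadd45g (-1.10), Btg2 (-0.74) and Cdkn2d (-0.44) were lower in the shelves and Cdkn1a (0.79) was higher.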

How the data were processed

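Per the submitters' processing notes, the deposited log2 values were made by the authors in Affymetrix Expression Console by RMA. Versions, genome build and annotation were not given in the sources used here. This method sets the arrays to 1 common distribution, so a shift shared by most genes is removed and differences of dim genes are compressed. Read depth does not apply, and precision is limited by the number of arrays. Values ran from 1.63 to 13.55.

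Groups came from the sample titles; 1 other label also calls the E13.5 samples heads. Of 41345 clusters, 23521 had 1 gene symbol (23328 matched RefSeq GRCm38.p6 by Entrez identifier, 0 symbols changed), 1814 several and 16010 none listed. Clusters of a gene were averaged on the log2 scale. Each pair was compared as knockout minus wild type without a test, and counted from 1.5-fold. Genotype and tissue came from 1 additive limma 3.58.1 fit (lmFit, eBayes, Benjamini-Hochberg over 11999 genes, R 4.3.3). A run on data simulated from the fit's own prior checked only that planted changes are returned on average. It does not test how the fit behaves on these arrays. The prior of the fit had 5.49 degrees of freedom and SD 0.107, so standard errors rest mostly on the prior. The named genes were to be the extreme members of each comparison; here all 25 are given or counted.

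The members, lists and tests were chosen with earlier results of these data known, and no list supports a result independently. Alternatives were cyclic loess, centring of each array, a repeat of quantile normalization, using a gene's brightest cluster, an upper-quartile filter (log2 7.79) or no filter, limits of 0.32 (log2) and 2-fold, and the mean. For the fit they were 1 common variance (the mean over all genes, with a normal test in place of the limma test), robust eBayes and a mean-variance trend. After the data were seen, counts without H2bc9 and the shared clusters were added.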

Additional observations from a re-analysis of the deposited data

How the results depend on the processing

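In the head, the count of genes at least 1.5-fold lower was 1, and it was 3 from a log2 difference of 0.32, 0 with the upper-quartile filter and 0 without H2bc9, which both leave out that gene. With no filter, which brings in 14 dim genes, 1 gene (H2bc14) was 1.5-fold higher, and 17 of 25 lay below 0 in the head and 10 of 25 in the shelves. The mean in the head was -0.25 where the median was -0.11. For genotype, 1 histone gene (H2bc9) was lower with 1 common variance and 0 under the other alternatives; that setting called 82 genes higher and 68 lower, and the mean-variance trend 1 and 10, against 0. For tissue, the count of genes called higher was 1, and 0 with no filter, 0 with the upper-quartile filter, which leaves out H2bc21, and 2 with the mean-variance trend (H2ac10 also). The count called lower was 0, and 1 with no filter (H4c17) and 1 with 1 common variance (H2bc9). Why the trend and the common variance moved the calls was not tested. The other 113 recomputed counts and medians kept within 1.5 times or 0.1 on the log2 scale. H2bc9, H2bc3 and H2bc21 kept head differences of -1.10 to -1.07, -0.58 to -0.53 and -0.48 to -0.45. H2ac10, H2ac21 and H4c12 changed sign in the head, between -0.0076 and 0.060, -0.018 and 0.0012, and -0.048 and 0.020. No paired analysis was possible because the labels give no replicate numbers; tissue is a term of the fit, and leaving out 1 array leaves no residual degree of freedom.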
